A study of Mus musculus with 12 samples.

Results

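The genes described here are 10 components of the protein-folding machinery of the endoplasmic reticulum (ER) and of the unfolded protein response. They were chosen by name (Hspa5, Hsp90b1, Hyou1, Dnajb9, Sdf2l1, Pdia4, Pdia6, Calr, Herpud1 and Xbp1), with earlier results of these data known. All 10 were found among the 20844 genes listed in both deposited tables. RNA was sequenced from mouse embryonic fibroblasts (MEFs), primary connective-tissue cells taken from embryos of day 13.5 to 14.5, in 12 libraries of 4 groups with 3 libraries each. The cells were homozygous for LSL-Nrf2D29H, an inducible missense allele of the antioxidant transcription factor NRF2 (gene symbol Nfe2l2), or for CA-Keap1R554Q, an inducible missense allele of KEAP1, the adaptor that marks NRF2 for degradation. All cells were grown in pyruvate-free medium with serum and received adenovirus at a multiplicity of infection of 500, either empty or carrying Cre recombinase, and RNA was taken 4 days later. In Nrf2 cells the submitters describe the empty-virus group as a functional knockout, so it is labelled knockout, and D29H as expressed after Cre. In Keap1 cells they describe Keap1 as wild type with the empty virus and R554Q as expressed after Cre. No group combined wild-type alleles with Cre, so Cre itself and a mutant allele cannot be told apart in either comparison. The labels do not say that replicates came from separate cultures or embryos, so p-values measure the spread between these libraries, which may be technical.

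Secreted and membrane proteins fold in the ER with the help of chaperones such as BiP (the product of Hspa5), disulphide isomerases and the lectin chaperones. When unfolded proteins build up, the sensors IRE1, PERK and ATF6 start the unfolded protein response: IRE1 splices Xbp1 mRNA, ATF6 is cut to an active factor, and both raise chaperone and ER-associated degradation genes, while PERK slows translation and acts through ATF4. Fibroblasts secrete large amounts of collagen and other matrix proteins and therefore carry a high load of ER folding.

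Total counts ran from 14963004 in labelled knockout replicate 3 to 23818477 in labelled knockout replicate 2. Levels are given in CPM (TMM-scaled over the 12 libraries), which makes read counts comparable between libraries of unequal depth. The NRF2 target Nqo1, an antioxidant quinone reductase, rose with Cre in both alleles, by log2 fold changes of 3.74 and 3.41 (edgeR adjusted p 2.5e-16 and 1.1e-13). Nfe2l2 reads were present in the libraries labelled knockout, at 40.2 to 46.5 CPM against 49.6 to 57.1 CPM in D29H (log2 fold change 0.31, SE 0.10, edgeR adjusted p 0.0713). Keap1 wild type had 41.7 to 44.2 CPM, which overlapped labelled knockout (log2 fold change of labelled knockout against wild type -0.0092, SE 0.10, edgeR adjusted p 0.965). Nqo1 was lower in labelled knockout, at 7.65 to 10.8 CPM, than in wild type, at 33.0 to 33.4 CPM (log2 fold change -1.90, SE 0.13, edgeR adjusted p 3.3e-10). The reads of Nfe2l2 thus did not separate these 2 groups, while Nqo1 differed in the direction of the label, and the name "labelled knockout" is kept throughout. The 7 fibroblast markers summed to 14447 to 20536 CPM over the 12 libraries, while the marker sums of macrophage, endothelial, epithelial, muscle and neural cells lay between 15.2 and 365 CPM.

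The promoters of several of these genes hold the element through which ATF6 and XBP1 are known to act, the ER stress response element (ERSE, searched on both strands as CCAAT and CCACG with any 9 bases between them), or its shorter relative ERSE-II (ATTGG and CCACG with 1 base between them). Promoter sequences from RefSeq (GRCm38.p6, 250 bases before to 50 after the annotated start) were at hand for 9 of the 10 genes, all but Hyou1. The 5 stretches with an exact match are printed because they show what sets these promoters apart in sequence. Capitals mark the fixed letters of the match, and each line reads along the strand of the gene.
Hspa5, chr2:34772005-34772063, plus strand: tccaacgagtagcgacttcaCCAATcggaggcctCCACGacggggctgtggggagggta
Hsp90b1, chr10:86705513-86705676, minus strand: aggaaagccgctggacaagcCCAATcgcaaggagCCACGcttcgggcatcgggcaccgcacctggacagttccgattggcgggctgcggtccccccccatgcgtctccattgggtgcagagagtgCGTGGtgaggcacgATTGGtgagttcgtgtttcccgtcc
Pdia6, chr12:17266471-17266529, plus strand: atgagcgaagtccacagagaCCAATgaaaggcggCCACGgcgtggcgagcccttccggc
Calr, chr8:84847055-84847113, minus strand: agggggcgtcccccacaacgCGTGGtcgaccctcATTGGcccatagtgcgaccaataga
Herpud1, chr8:94386357-94386407, plus strand: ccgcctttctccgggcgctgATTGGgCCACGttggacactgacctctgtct
The Hspa5 stretch lies inside the span that the tables list for the gene, past its listed start, and the other 4 lie just upstream of the listed spans. ERSE matched in 4 of the 9 promoters and in 0.119% of all 32851 promoters of the same length. Hsp90b1 held 2 matches, 1 on each strand, and was the single promoter of all with more than 1. ERSE-II matched in Herpud1 and in 0.0365% of all promoters. The UPRE core TGACGTGG matched in 0 of the 9 and in 0.676% of all, and the antioxidant response element core TGACNNNGC, the motif of NRF2, matched in 3 of the 9 (Sdf2l1, Calr and Herpud1) and in 12.4% of all. CCAAT and CCACG are parts of ERSE, so these searches overlap. A match describes the letters in the window and does not show binding.

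All 10 transcripts had log2 fold changes below 0, with Cre virus against empty virus, in both alleles, but most did not pass the test, and those of Dnajb9 and Xbp1 in D29H were within their standard errors. In D29H against labelled knockout all 10 log2 fold changes were below 0, from -0.47 for Hspa5 to -0.06 for Xbp1, with a median of -0.32 against 0.00 for all genes. In R554Q against wild type all 10 were again below 0, from -0.48 for Hspa5 to -0.15 for Dnajb9, with a median of -0.24. In D29H 0 of the 10 had an adjusted p under 0.05 in edgeR's quasi-likelihood test, where 4.75% of all 14370 genes were called in either direction and 1.28% were called lower. The count was 1 with DESeq2 and 0 with limma, which called 2.17% and 1.22% of all genes lower, and 8 of the 10 had an unadjusted p under 0.05, against 10.3% of all genes lower at that level. In R554Q 2 of the 10, Hspa5 and Herpud1, fell past the threshold, where 2.4% of all 14128 genes were called lower, 3.77% were called higher and 6.17% in either direction. The count was 4 with DESeq2 and 3 with limma, which called 3.53% and 2.42% of all genes lower. At an unadjusted p under 0.05 the count was 7 of 10, against 11.4% of all genes lower at that level. Every D29H library was below every labelled knockout library for 5 of the 10 genes (12.9% of all genes), and every R554Q library was below every wild-type library for 6 of the 10 (14.2% of all genes). In these bulk samples fewer cells of a type and less RNA per cell cannot be told apart.

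**Figure D1:**
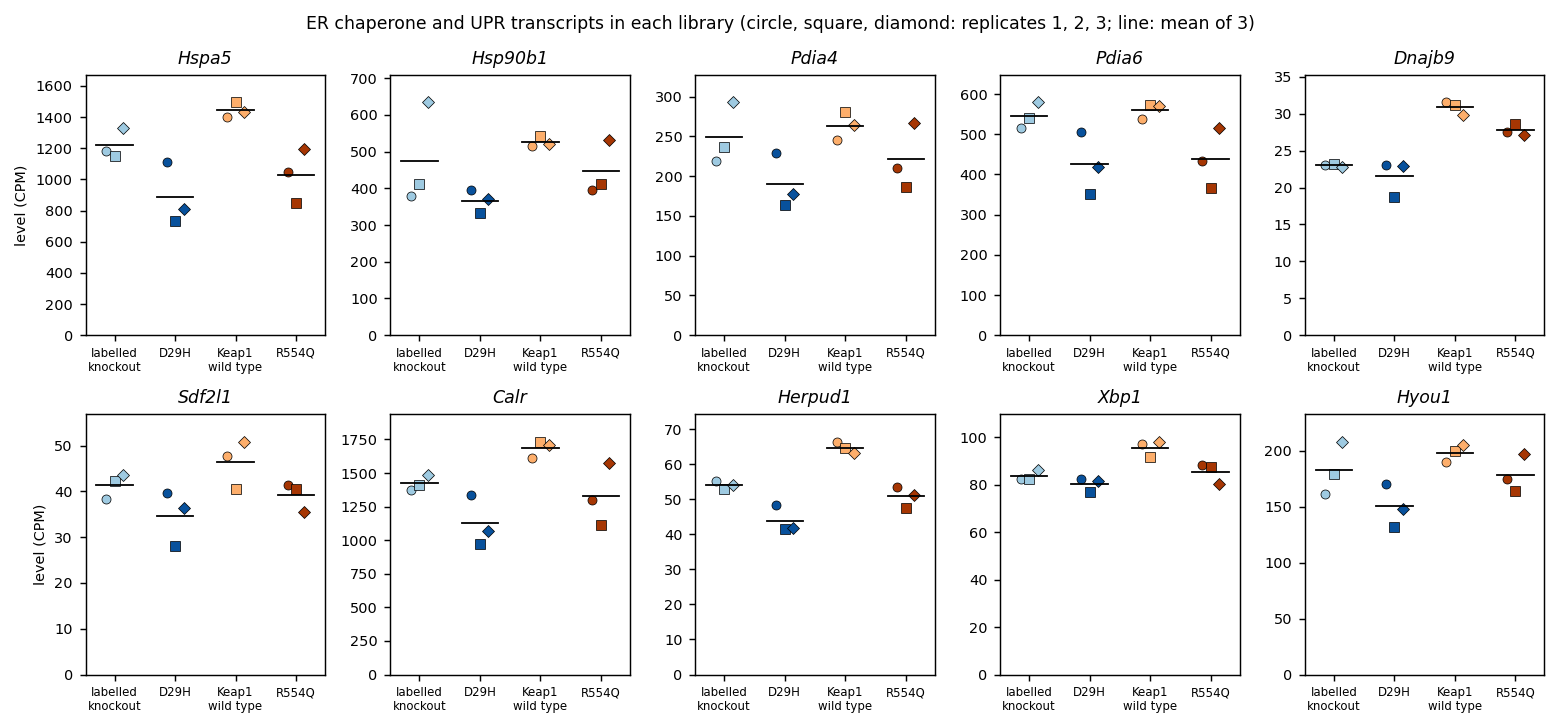
Level of each of the 10 transcripts in every library, in CPM on a linear axis from 0 (circle, square and diamond are replicates 1, 2 and 3, and the line is the mean of 3). Keap1 wild type has the highest mean and D29H the lowest for all 10 genes, and labelled knockout replicate 3 stands above the others of its group for Hsp90b1.

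Hspa5 encodes BiP, the ER Hsp70 chaperone that binds unfolded chains and holds the sensors inactive (ENSMUSG00000026864, chromosome 2, 34771970 to 34776531, plus strand, GRCm38). Its level was 1184, 1147 and 1332 CPM in labelled knockout and 1111, 732 and 810 CPM in D29H. It was 1400, 1493 and 1434 CPM in Keap1 wild type and 1049, 850 and 1195 CPM in R554Q. The groups did not overlap in either allele, and the Cre libraries nearest to their controls were D29H replicate 1 and R554Q replicate 3. The log2 fold change was -0.47 (SE 0.14, edgeR adjusted p 0.0528) in D29H and -0.48 (SE 0.11, edgeR adjusted p 0.0135) in R554Q, so that the R554Q level dropped by 28.2%. Hspa5 passed the threshold in D29H without D29H replicate 1 (-0.67, adjusted p 0.00243) or without labelled knockout replicate 1 (-0.49, adjusted p 0.0436). It missed the threshold in R554Q without R554Q replicate 1, wild-type replicate 2 or wild-type replicate 3, where edgeR gave adjusted p of 0.0711, 0.0747 and 0.0567. D29H replicate 1 was the highest of its group for all 10 genes, so leaving it out enlarges each fall by construction. All genes called rose from 682 to 2192 without it and from 872 to 2872 without R554Q replicate 3. Passes in those 2 fits, here and for the genes below, are therefore no separate support for a fall.

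Hsp90b1 encodes GRP94, the Hsp90 chaperone of the ER (ENSMUSG00000020048, chromosome 10, 86690209 to 86705509, minus strand). Its level was 378, 411 and 634 CPM in labelled knockout and 395, 333 and 370 CPM in D29H. It was 514, 543 and 520 CPM in wild type and 396, 411 and 531 CPM in R554Q. Groups overlapped in both alleles, and labelled knockout replicate 3, the shallowest library, stood well above its group. The log2 fold change was -0.38 (SE 0.15, edgeR adjusted p 0.127) in D29H and -0.10 without that library, so 1 control library set most of its size. Without labelled knockout replicate 1 it was -0.52 (edgeR adjusted p 0.0245). In R554Q it was -0.23 (SE 0.10, edgeR adjusted p 0.166), and with offsets for the GC content and length of each gene it was -0.12 (adjusted p 0.446). Without R554Q replicate 3 it was -0.37 (edgeR adjusted p 0.000655). Hyou1 encodes the Hsp110-type chaperone of the ER, a nucleotide exchange factor for BiP (ENSMUSG00000032115, chromosome 9, 44379490 to 44392369, plus strand). It had 161, 179 and 208 CPM in labelled knockout and 171, 132 and 148 CPM in D29H. It had 190, 200 and 205 CPM in wild type and 175, 164 and 197 CPM in R554Q. Both pairs of groups overlapped. Its log2 fold changes were -0.28 (SE 0.12, edgeR adjusted p 0.146) and -0.15 (SE 0.08, adjusted p 0.303), and it passed the threshold without D29H replicate 1 (-0.39, adjusted p 0.0361) and without R554Q replicate 3 (-0.22, adjusted p 0.0445).

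The helpers of BiP Dnajb9 and Sdf2l1 did not pass in either allele. Dnajb9 encodes ERdj4, a J-domain co-chaperone of BiP (ENSMUSG00000014905, chromosome 12, 44205897 to 44210068, minus strand). It had 23.1, 23.2 and 22.8 CPM in labelled knockout and 23.1, 18.7 and 22.9 CPM in D29H, so that D29H replicate 2 alone lay below the controls. It had 31.5, 31.2 and 29.8 CPM in wild type and 27.5, 28.6 and 27.1 CPM in R554Q, without overlap. The log2 fold change was -0.10 (SE 0.11, edgeR adjusted p 0.637) in D29H and 0.00 without D29H replicate 2. In R554Q it was -0.15 (SE 0.09, edgeR adjusted p 0.32), and with GC and length offsets it was 0.06. Sdf2l1 encodes an ER protein that works with BiP and its J-domain partners (ENSMUSG00000022769, chromosome 16, 17130138 to 17132383, minus strand). It had 38.5, 42.4 and 43.6 CPM in labelled knockout and 39.7, 28.0 and 36.4 CPM in D29H. It had 47.7, 40.6 and 50.9 CPM in wild type and 41.5, 40.5 and 35.6 CPM in R554Q. The groups overlapped in both alleles. The log2 fold changes were -0.26 (SE 0.12, edgeR adjusted p 0.184) and -0.24 (SE 0.10, adjusted p 0.138), and the second passed with the offsets (-0.27, adjusted p 0.0392). Without D29H replicate 1 the first was -0.37 (edgeR adjusted p 0.0471).

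The disulphide isomerases and the lectin chaperone did not pass in either allele with all libraries. Pdia6 encodes P5, a disulphide isomerase that binds BiP (ENSMUSG00000020571, chromosome 12, 17266545 to 17284770, plus strand). It had 515, 541 and 579 CPM in labelled knockout and 506, 353 and 418 CPM in D29H. It had 538, 572 and 572 CPM in wild type and 435, 366 and 516 CPM in R554Q. Neither pair of groups overlapped. The log2 fold changes were -0.36 (SE 0.13, edgeR adjusted p 0.0926) and -0.35 (SE 0.10, adjusted p 0.0541). Pdia4 encodes ERp72, another disulphide isomerase of the ER (ENSMUSG00000025823, chromosome 6, 47796142 to 47813512, minus strand). It had 218, 237 and 293 CPM in labelled knockout and 229, 164 and 178 CPM in D29H. It had 245, 280 and 264 CPM in wild type and 210, 186 and 267 CPM in R554Q. D29H replicate 1 and R554Q replicate 3 lay within the range of their controls. The log2 fold changes were -0.39 (SE 0.13, edgeR adjusted p 0.0722) and -0.24 (SE 0.11, adjusted p 0.174). Calr encodes calreticulin, the soluble lectin chaperone and calcium store of the ER (ENSMUSG00000003814, chromosome 8, 84841850 to 84846934, minus strand). It had 1377, 1408 and 1483 CPM in labelled knockout and 1340, 973 and 1072 CPM in D29H. It had 1610, 1733 and 1712 CPM in wild type and 1301, 1112 and 1574 CPM in R554Q. The groups did not overlap, although D29H replicate 1 and R554Q replicate 3 came close to the controls. The log2 fold changes were -0.34 (SE 0.13, edgeR adjusted p 0.126) and -0.34 (SE 0.11, adjusted p 0.0701). Without D29H replicate 1 all 3 genes passed in D29H, at -0.50, -0.55 and -0.48 for Pdia6, Pdia4 and Calr, and Pdia4 also passed without labelled knockout replicate 1 (-0.48). Without R554Q replicate 3 all 3 passed in R554Q, at -0.47, -0.40 and -0.47. D29H replicate 1 and R554Q replicate 3 were the highest of their groups for these 3 genes, so leaving them out enlarges the falls by construction.

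Herpud1 and Xbp1 act outside folding itself. Herpud1 encodes a membrane protein that organises the retrotranslocation complex of ER-associated degradation (ENSMUSG00000031770, chromosome 8, 94386438 to 94395377, plus strand). It had 55.2, 52.9 and 54.2 CPM in labelled knockout and 48.3, 41.6 and 41.7 CPM in D29H. It had 66.4, 64.7 and 63.1 CPM in wild type and 53.6, 47.6 and 51.3 CPM in R554Q. The groups did not overlap in either allele, and D29H replicate 1 stood above the other 2 libraries of its group. The log2 fold change was -0.30 (SE 0.10, edgeR adjusted p 0.0723) in D29H and -0.34 (SE 0.08, edgeR adjusted p 0.0191) in R554Q. The D29H value passed the threshold without D29H replicate 1 (-0.38, adjusted p 0.015). The R554Q value kept its size, from -0.38 to -0.30, when any 1 library was left out, but passed only without R554Q replicate 3. Without any of the other 5 libraries (R554Q replicates 1 and 2 and the 3 wild-type replicates) the edgeR adjusted p was 0.0528 to 0.091. Xbp1 encodes the transcription factor made by IRE1-dependent splicing (ENSMUSG00000020484, chromosome 11, 5520659 to 5525893, plus strand), and gene-level counts do not separate its spliced form. It had 82.3, 82.3 and 86.3 CPM in labelled knockout and 82.2, 76.9 and 81.3 CPM in D29H. It had 96.9, 91.5 and 98.0 CPM in wild type and 88.4, 87.3 and 80.1 CPM in R554Q. No library crossed between the groups of an allele, but the steps were small, with log2 fold changes of -0.06 (SE 0.10, edgeR adjusted p 0.729) and -0.16 (SE 0.08, adjusted p 0.231).

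In the authors' deposited table for D29H the lowest adjusted p of the 10 genes was 0.0158, for Hspa5, followed by 0.0437 for Pdia6, 0.0451 for Calr and 0.0485 for Pdia4. In the authors' deposited table for R554Q it was 0.000216 for Hspa5, 0.00411 for Herpud1, 0.0157 for Pdia6 and 0.0202 for Calr. The other 6 genes of each deposited table had adjusted p above 0.05. The share of all genes under 0.05 in the deposited tables was not counted, so these values have no background beside them.

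**Figure D2:**
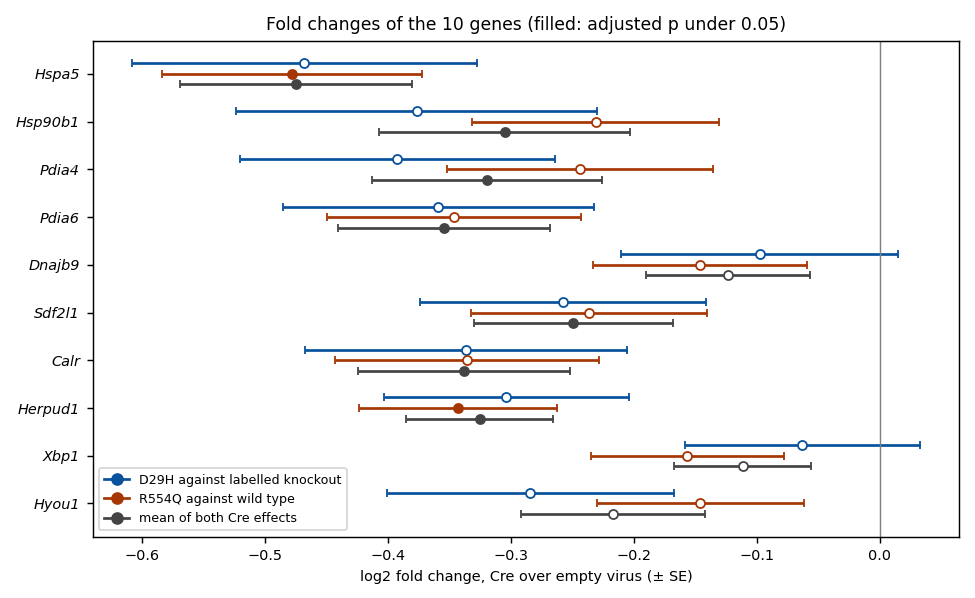
Log2 fold change (Cre over empty virus) of each gene in D29H, in R554Q and in the mean of both effects, with standard errors as bars and filled points for an adjusted p under 0.05. All 30 points lie below 0, and the bars of the 2 alleles overlap for each gene.

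The difference between the alleles was tested directly by subtracting the R554Q effect from the D29H effect in 1 fit of all 12 libraries. It was called for 0 of the 10 genes, against 0.027% of all 14794 genes, and 0 of the 10 had an unadjusted p under 0.05 in edgeR, against 11.3% of all genes. DESeq2 and limma also called 0 of the 10. The differences ran from -0.14 for Hsp90b1 and Pdia4 to 0.10 for Xbp1, with standard errors from 0.11 to 0.20 and a lowest edgeR adjusted p of 0.763, so differences of the size of these errors were not detectable with 3 libraries a group.

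The mean of both Cre effects uses the same 12 libraries, 6 with Cre virus and 6 without, and is no independent evidence. In it 7 of the 10 genes fell, where 7.33% of all 14794 genes were called lower. The falls were largest for Hspa5 (log2 fold change -0.47, SE 0.09, edgeR adjusted p 0.00263), Pdia6 (-0.35, SE 0.09, adjusted p 0.00997), Calr (-0.34, SE 0.09, adjusted p 0.0128) and Herpud1 (-0.33, SE 0.06, adjusted p 0.00126). Pdia4 (-0.32, adjusted p 0.0254), Hsp90b1 (-0.31, adjusted p 0.0453) and Sdf2l1 (-0.25, adjusted p 0.0396) also fell in edgeR. Hyou1 (-0.22, adjusted p 0.0514), Dnajb9 (-0.12, adjusted p 0.21) and Xbp1 (-0.11, adjusted p 0.175) did not pass. Hspa5, Pdia6 and Herpud1 passed without any 1 of the 12 libraries, and Calr missed only without D29H replicate 2 (-0.28, adjusted p 0.0508). The count of 7 was 3 without D29H replicate 2 and 4 without D29H replicate 3, labelled knockout replicate 3, R554Q replicate 1, R554Q replicate 2 or wild-type replicate 3. Genes called lower among all went from 1085 to 419, 421, 839, 491, 471 and 624 in the same order, so calls were lost well beyond the 10 genes. Hsp90b1 was -0.17 without labelled knockout replicate 3, and it missed the threshold in 8 of the 12 fits that left out 1 library, with DESeq2 (adjusted p 0.13) and with the GC and length offsets (-0.21, adjusted p 0.128). With those offsets Hyou1 passed (-0.27, adjusted p 0.0253).

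**Figure D3:**
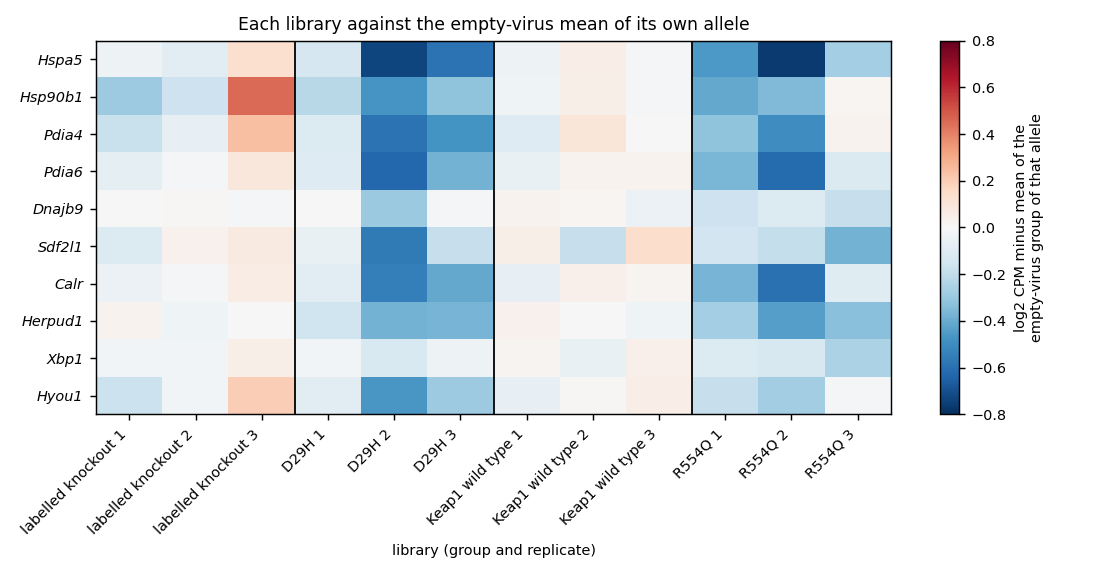
Log2 CPM of each gene in each library minus the mean of the empty-virus group of the same allele (colour scale from -0.8 to 0.8). D29H replicate 2 and R554Q replicate 2 are the bluest columns, D29H replicate 1 lies between -0.22 and 0.00, and R554Q replicate 3 is close to the controls for Hsp90b1, Pdia4 and Hyou1 and reaches -0.38 for Sdf2l1.

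The Cre libraries differed from each other. Averaged over the 10 genes, the log2 level relative to the empty-virus mean was -0.10, -0.48 and -0.31 in D29H replicates 1, 2 and 3 and -0.28, -0.40 and -0.16 in R554Q replicates 1, 2 and 3. D29H replicate 1 was the highest of its group for 10 of the 10 genes, as it was for 37.8% of all genes, and D29H replicate 2 was the lowest for 10 of the 10 (33.8% of all genes). R554Q replicate 3 was the highest of its group for 6 genes (Hspa5, Hsp90b1, Pdia4, Pdia6, Calr and Hyou1), against 38.2% of all genes, and the lowest for 3 (Dnajb9, Sdf2l1 and Xbp1). R554Q replicate 2 was the lowest for 6 genes (35.04% of all genes). Control libraries also differed in rank: labelled knockout replicate 3 was the highest of its group for 8 of the 10 genes (40.5% of all genes), and wild-type replicate 1 the lowest for 6 (30.2% of all genes). In 24 other ER chaperone and folding enzyme genes D29H replicate 1 was highest for 18, D29H replicate 2 lowest for 18, R554Q replicate 3 highest for 17 and R554Q replicate 2 lowest for 20, while labelled knockout replicate 3 was highest for 16 and wild-type replicate 1 lowest for 21. In 14 heat shock genes outside the ER D29H replicate 1 was highest for 11, R554Q replicate 2 lowest for 8 and labelled knockout replicate 1 lowest for 9. The median SD of log2 CPM over the 10 genes was 0.21 in D29H and 0.18 in R554Q, against 0.09 in labelled knockout and 0.05 in wild type. In 6503 genes at least as abundant as the least abundant of the 10, a set not matched to them in level, the medians were 0.11, 0.11, 0.10 and 0.08 in the same order. The 3 D29H libraries held 21226620 to 21465397 counts and the 3 R554Q libraries 20181187 to 22066822, with R554Q replicate 2 the deepest.

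**Figure D4:**
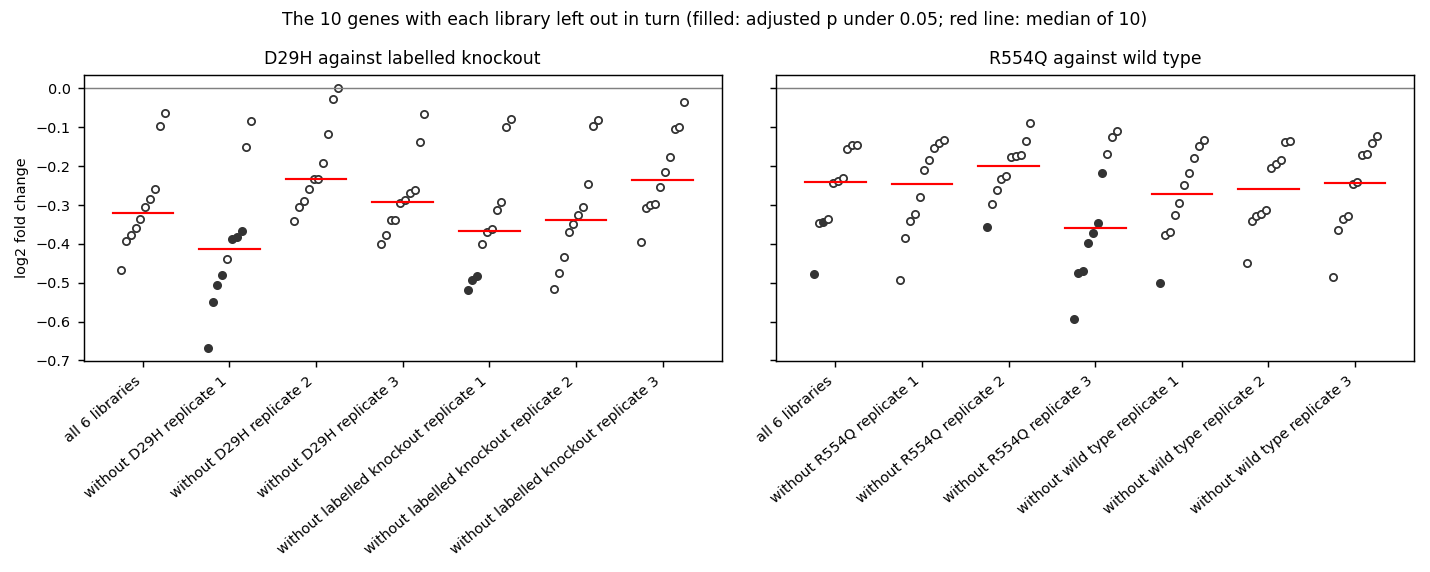
Log2 fold changes of the 10 genes with all 6 libraries of an allele and with each library left out in turn (filled points have an adjusted p under 0.05, the red line is the median of 10). Filled points are most numerous without D29H replicate 1 and without R554Q replicate 3, and the medians stay below 0 throughout.

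Leaving out single libraries changed the counts of calls. Without D29H replicate 1, 7 of the 10 genes passed in D29H and all genes called rose from 682 to 2192. Without labelled knockout replicate 1 the count was 3, with 913 of all genes called. Without any of the other 4 libraries it was 0, with 82 to 569 of all genes called. Without R554Q replicate 3, 7 of the 10 passed in R554Q and all genes called rose from 872 to 2872. Without R554Q replicate 2 or wild-type replicate 1 the count was 1, with 410 and 392 of all genes called. Without R554Q replicate 1, wild-type replicate 2 or wild-type replicate 3 it was 0, with 238, 241 and 430 of all genes called.

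Across the 4 groups, Keap1 wild type had the highest mean CPM and D29H the lowest for all 10 genes. Labelled knockout came next after wild type for 8 genes, and R554Q did so for Dnajb9 and Xbp1. Neighbouring groups in this order mostly overlapped. Wild type was apart from the group next below it for Hspa5, Dnajb9, Calr, Herpud1 and Xbp1, D29H was apart from the group next above it for Hsp90b1 and Xbp1, and the groups in between were apart from each other for Dnajb9. The 2 empty-virus groups differ in allele and in cell culture, which cannot be told apart. Between them all 10 genes had log2 fold changes below 0 in labelled knockout against Keap1 wild type, with a median of -0.18, and every labelled knockout library was below every wild-type library for 5 genes (19.1% of all genes). Dnajb9 (-0.42, SE 0.09, edgeR adjusted p 0.00255) and Herpud1 (-0.26, SE 0.08, adjusted p 0.0321) passed as lower, where 10.1% of all genes were called lower. The Herpud1 call was lost in 7 of the fits that left out 1 library, those without any 1 of the 6 empty-virus libraries or R554Q replicate 1, with a highest edgeR adjusted p of 0.137. Without labelled knockout replicate 3, Hsp90b1 also passed (-0.41, adjusted p 0.013). Between the 2 Cre groups all 10 genes had values above 0 in R554Q against D29H, with a median of 0.22, and the groups did not overlap for Hsp90b1 and Dnajb9 (19.0% of all genes). Dnajb9 alone passed (0.36, SE 0.09, edgeR adjusted p 0.00663), where 13.4% of all genes were called higher. Without D29H replicate 1 the count was 6, without R554Q replicate 2 it was 3 and without labelled knockout replicate 3 it was 2, while genes called higher among all went from 1987 to 2236, 1817 and 2212. These comparisons share libraries with those of Cre against empty virus.

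Per length of transcript, on the authors' FPKM scale, Calr was the most abundant with a mean of 634 over the 12 libraries, followed by Hspa5 with 436, Pdia6 with 226, Hsp90b1 with 140 and Pdia4 with 92.8. Xbp1 (40.4), Sdf2l1 (36.4), Hyou1 (35.9), Herpud1 (27.2) and Dnajb9 (13.8) were lower. Overlapping genes held few reads. For Hsp90b1, Gm15344 on the same strand and 1810014B01Rik on the opposite strand held 0.248% and 0.399% of its counts, for Herpud1 the antisense Gm15890 held 0.233% and for Pdia6 Atp6v1c2 held 0.00899%. Use of strand in counting is not given in the sources used here, so reads of such pairs are uncertain at this level.

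The wider ER and stress pathways were counted from lists of genes written for this description. Of the 24 other ER chaperones and folding enzymes, 1 fell in D29H (Pdia5, a disulphide isomerase, log2 fold change -0.46, edgeR adjusted p 0.0133) and 1 in R554Q (Manf, a secreted ER stress protein, -0.33, adjusted p 0.0171), where 1.28% and 2.4% of all genes were called lower. The medians were -0.27 and -0.18, and 20 and 21 of the 24 were below 0. In the mean of both effects 13 of the 24 fell and 0 rose, where 7.33% of all genes were called lower and 8.49% higher. Named by smallest edgeR adjusted p, these were Creld2 (-0.30), Pdia5 (-0.29), the BiP co-chaperones Dnajc3 (-0.28) and Dnajc10 (-0.33), P4hb, the classical disulphide isomerase (-0.38), and Erp44 (-0.28). Single libraries weighed on these counts: without D29H replicate 1 the D29H count was 12, without labelled knockout replicate 1 it was 6, and without D29H replicate 2, D29H replicate 3 or labelled knockout replicate 2 it was 0. Genes called lower among all went from 184 to 998, 314, 9, 10 and 75 in the same order. Without R554Q replicate 3 the R554Q count was 14, and without R554Q replicate 1 or any 1 wild-type library it was 0. Genes called lower among all went from 339 to 1342 without R554Q replicate 3 and to 52 without R554Q replicate 1. They went to 109, 48 and 128 without wild-type replicates 1, 2 and 3. The 13 of the mean became 4 without wild-type replicate 2, 5 without D29H replicate 2 or 3, 6 without R554Q replicate 1 and 7 without R554Q replicate 2. Genes called lower among all went from 1085 to 367, 419, 421, 491 and 471 in the same order.

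**Figure D5:**
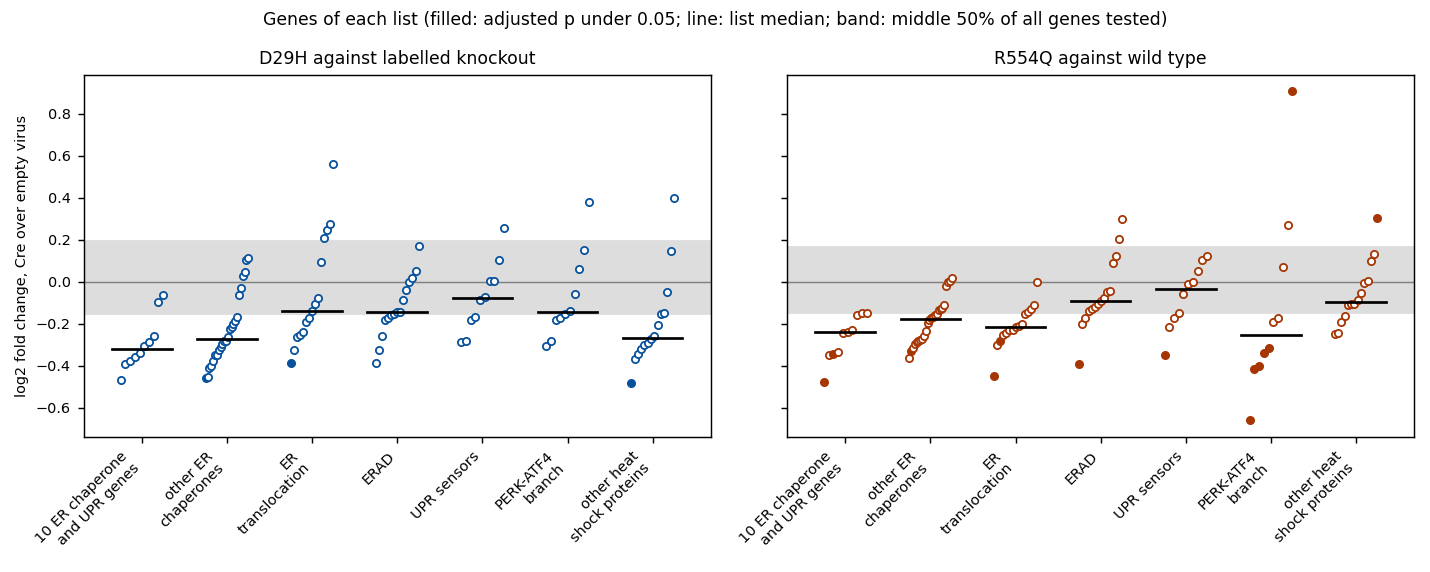
Log2 fold change, Cre over empty virus, of every gene of each list in D29H (left) and R554Q (right), with filled points for an adjusted p under 0.05, a line at the list median and a grey band for the middle 50% of all genes tested. The 10 genes and the 24 other ER chaperones lie mostly below the band in D29H, and the PERK-ATF4 branch has the most filled points in R554Q.

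Of 15 genes of ER translocation and signal peptide removal, the signal peptidase subunit gene Spcs3 fell in D29H (-0.38, edgeR adjusted p 0.0354), and Spcs3 (-0.45, adjusted p 0.0121) and Sec11a, the catalytic subunit (-0.28, adjusted p 0.0433), fell in R554Q. Of all genes 1.28% were called lower in D29H, 2.4% in R554Q and 7.33% in the mean of both effects, which is the background for the counts of the lists here. In fits that left out 1 library, genes called lower among all ran from 9 to 998 in D29H, where 184 were reported. They ran from 48 to 1342 in R554Q, where 339 were reported, and from 367 to 1798 in the mean, where 1085 were reported. The D29H count of 1 was 5 without D29H replicate 1, 2 without labelled knockout replicate 1 and 0 without D29H replicate 2, D29H replicate 3 or labelled knockout replicate 3. The R554Q count of 2 was 8 without R554Q replicate 3, 1 without R554Q replicate 2 or wild-type replicate 1 or 3, and 0 without R554Q replicate 1 or wild-type replicate 2. The list medians were -0.14 and -0.22, and 7 of the 15 fell in the mean of both effects, with Spcs3 at -0.42, Ssr1 at -0.28, Spcs2 at -0.21, Sec63 at -0.25, Ssr2 at -0.22 and Ssr3 at -0.20. The Spcs3 call in the mean was kept without any 1 library, while the count of 7 was 1 without D29H replicate 2, D29H replicate 3, R554Q replicate 1, R554Q replicate 2 or wild-type replicate 2, 2 without wild-type replicate 1 or 3, and 3 without labelled knockout replicate 2. Of 15 genes of ER-associated degradation, Vimp (selenoprotein S) fell in R554Q (-0.39, edgeR adjusted p 0.00981), and 0 were called in D29H, where 3 were lower and 0 higher at an unadjusted p under 0.05 and DESeq2 called 1 and limma 0. Derl1 (-0.19) and Vimp (-0.20) were among those that fell in the mean of both effects. In D29H 3 genes were called without D29H replicate 1 and 1 without labelled knockout replicate 3, and in R554Q 2 without R554Q replicate 3 and 0 without wild-type replicate 2. The Vimp call in the mean was lost without any 1 library other than D29H replicate 1 and labelled knockout replicate 3. The Derl1 call was lost without any 1 library other than D29H replicate 1, labelled knockout replicate 1 and R554Q replicate 3. Of 10 sensors and transducers of the response, 0 were called in D29H, where 2 were lower and 1 higher at an unadjusted p under 0.05 and DESeq2 and limma called 0. Eif2s1, the translation factor that PERK phosphorylates, fell in R554Q (-0.35, edgeR adjusted p 0.0153), but not without R554Q replicate 1, wild-type replicate 1 or wild-type replicate 2, and 2 of the 10 fell without R554Q replicate 3. It also fell in the mean of both effects (-0.21), as did Atf6 (-0.25) and Mbtps2, a protease that activates ATF6 (-0.23), with list medians of -0.08, -0.03 and -0.03. Without D29H replicate 2 or 3, R554Q replicate 2 or wild-type replicate 2 that count was 0, and it was 1 without labelled knockout replicate 1, R554Q replicate 1 or wild-type replicate 1.

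The PERK-ATF4 branch held genes that moved in opposite directions. In R554Q 5 of its 10 genes fell: Atf3 (-0.66, edgeR adjusted p 0.017), Asns, asparagine synthetase (-0.41, adjusted p 0.0092), Nupr1 (-0.40, adjusted p 0.00623), Ddit3, which encodes CHOP (-0.34, adjusted p 0.0219), and Atf4 itself (-0.31, adjusted p 0.0244). Cebpb, which encodes the transcription factor C/EBP-beta, rose (0.91, edgeR adjusted p 0.000115). Of all genes 2.4% were called lower and 3.77% higher in R554Q. The 6 calls became 2 without R554Q replicate 1 and 3 without R554Q replicate 2, wild-type replicate 2 or wild-type replicate 3, and those of Nupr1 and Cebpb were kept without any 1 library. In D29H 0 of the 10 were called, by edgeR, DESeq2 or limma, with 2 lower and 1 higher at an unadjusted p under 0.05, and 2 were called without D29H replicate 1. In the mean of both effects Atf3 (-0.42), Asns (-0.36), Nupr1 (-0.27), Chac1 (-0.24) and Atf4 (-0.23) fell, and Cebpb (0.64) and Sesn2 (0.21) rose, where 7.33% of all genes were called lower and 8.49% higher. The count was 4 without D29H replicate 3 or R554Q replicate 2. Of 14 heat shock genes outside the ER, Hsp90aa1, a cytosolic Hsp90, fell in D29H (-0.48, edgeR adjusted p 0.0334), and Bag3, an Hsp70 cofactor, rose in R554Q (0.30, adjusted p 0.0338). The list medians were -0.27 and -0.10. Hsp90aa1 (-0.36), Hspa8 (-0.26) and Hspd1 (-0.27) fell in the mean of both effects, a count that was 7 without D29H replicate 1, 6 without R554Q replicate 3, 1 without D29H replicate 2, D29H replicate 3, R554Q replicate 1, R554Q replicate 2 or wild-type replicate 3, and 0 without wild-type replicate 2. In D29H the count of 1 was 7 without D29H replicate 1 and 0 without D29H replicate 2 or 3 or labelled knockout replicate 2 or 3. In R554Q the count of 1 was 6 without R554Q replicate 3 and 0 without R554Q replicate 1 or any 1 wild-type library. For both lists, the background without 1 library was 82 to 2192 genes called in either direction in D29H, where 682 were reported. It was 238 to 2872 in R554Q, where 872 were reported, and 1094 to 3528 in the mean, where 2341 were reported. Between the alleles 0 genes of any of these lists were called in edgeR, where the Cre effect in D29H minus that in R554Q was below 0 at an unadjusted p under 0.05 for 1, 2, 0, 0, 1 and 1 genes among sensors, other ER chaperones, degradation, translocation, PERK-ATF4 and heat shock genes (5.18% of all genes). In the same order it was above 0 at that level for 1, 2, 2, 4, 3 and 1 genes (6.09% of all genes).

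Summed markers of cell types also differed between some groups. The 7 fibroblast markers summed to 16678 to 17443 CPM in D29H and 18978 to 20536 CPM in labelled knockout, and to 14447 to 15723 CPM in R554Q and 14639 to 16962 CPM in wild type. Epithelial markers summed to 33.5 to 51.3 CPM in D29H against 57.7 to 73.1 CPM, and to 46.2 to 54.6 CPM in R554Q against 57.9 to 67.0 CPM. Muscle markers summed to 101 to 127 CPM in D29H against 129 to 142 CPM, and to 285 to 324 CPM in R554Q against 330 to 365 CPM. These 2 sums were thus lower with Cre without overlap in both alleles. Macrophage markers (61.4 to 72.3 CPM against 86.6 to 97.6 CPM) were lower and neural markers (60.8 to 67.8 CPM against 51.0 to 58.0 CPM) higher in R554Q without overlap, and both overlapped in D29H, as endothelial markers did in both alleles. Single markers called in edgeR were Krt19 in D29H (-0.58) and Pdgfra (0.36), Lyz2 (-0.53) and Des (-0.45) in R554Q. Of the lists, 3 to 4 of 5 endothelial, 2 to 3 of 5 epithelial, 1 to 2 of 4 neural and 0 of 6 macrophage genes were under 1 CPM in every library of a group, and 1 of 3 muscle genes listed in both tables. The part of other cells in the levels of the 10 genes was not tested.

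The genes whose pattern over the 12 libraries was most like the mean pattern of the 10 were Tmem66, Klhl2, Eef1g, Lap3 and Rab1. Likeness was measured as the root mean square difference of centred log2 CPM, among 9202 other genes with a mean of at least 10 CPM. It was 0.0489 for Tmem66, 0.0498 for Klhl2, 0.0524 for Eef1g, 0.0544 for Lap3 and 0.0571 for Rab1, against a median of 0.24 over all candidates and 0.0575 to 0.158 for the 10 genes themselves. Their log2 fold changes were -0.28, -0.23, -0.28, -0.33 and -0.22 in D29H and -0.27, -0.29, -0.20, -0.21 and -0.21 in R554Q, and Klhl2 in R554Q was the single one of these to pass in edgeR (adjusted p 0.0471). In the mean of both effects all 5 passed, with edgeR adjusted p from 0.00801 to 0.0318. They were chosen for their likeness to the 10 genes, so these values are a description.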

How the data were processed

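The authors deposited 1 table of the Nrf2 groups and 1 of the Keap1 groups, each holding a raw count for every gene and library (whole numbers, per the file headers). The authors also deposited FPKM, their own group mean signal, log2 fold changes and p-values, per the file headers. STAR, DESeq2 and the mm10 build are named in the submitters' processing notes, without versions, and no role is stated. The counting tool and its use of strand are not given in the sources used here. Counts were tested with edgeR 4.0.16 in R 4.3.3: filterByExpr, TMM factors, the quasi-likelihood test and Benjamini-Hochberg adjustment over all genes tested, with calls at an adjusted p under 0.05. Each allele was fitted on its own 6 libraries, and other contrasts in 1 fit of 12 libraries over genes in both tables. Alternatives were RLE and upper-quartile scaling, other filters, DESeq2 1.42.0, limma 3.58.1 with trend, GC and length offsets (lowess span 0.3), a replicate block, other thresholds and leaving out each library. GC content was known for 98.9% of genes. All 10 genes passed the filter on low counts in both tables. Steps were tested on simulated data. The 10 genes and all lists were chosen with earlier results of these data known. Named list genes were those called, at most 6 per list, direction and comparison by smallest adjusted p. A result of 1 list gene is not reported here. A match of a motif had no mismatch.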

Additional observations from a re-analysis of the deposited data

How the results depend on the processing

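Under the alternatives tried all 10 genes kept log2 fold changes below 0 in D29H and in R554Q, with the exceptions of Dnajb9 at 0.0023 in D29H without D29H replicate 2 and at 0.060 in R554Q with GC and length offsets. With those offsets Dnajb9 was also 0.014 in the mean of both effects. The number of the 10 genes called in D29H, 0 in the reported fit, was 4 without a filter on low counts, 1 with DESeq2, 2 with all 12 libraries in one fit and 4 at an adjusted p under 0.10, and it ran from 0 to 7 when 1 library was left out. All genes called went from 682 to 1195 (of 22114 tested), 778, 798 and 1469 in the first 4 of these settings, and ran from 82 to 2192 without 1 library. In R554Q, where it was 2, it was 4 without a filter, 4 with DESeq2, 0 at an adjusted p under 0.01 and 4 under 0.10, and 0 to 7 without 1 library. There all genes called went from 872 to 1502 (of 21916 tested), 1115, 242 and 1811 in the first 4 settings. In the mean of both effects, where it was 7, it was 3 at an adjusted p under 0.01 and 3 to 8 without 1 library. All genes called in the mean went from 2341 to 685 at that threshold and to 1400 with a replicate block by title number. Over the 10 genes and all alternatives except thresholds, calls of the mean were lost 33 times and gained 7 times. Between the empty-virus groups, where it was 2, it was 1 without a filter, 1 at an adjusted p under 0.01 and 1 to 2 without 1 library, and Pdia4 ran from -0.21 to 0.0076, above 0 without labelled knockout replicate 1. All genes called between these groups went from 2911 to 2850 without a filter and to 1690 at an adjusted p under 0.01. Between the Cre groups, where it was 1, it was 2 with the offsets, 3 at an adjusted p under 0.10 and 1 to 6 without 1 library, and Pdia6 ran from -0.10 to 0.20, at -0.08 without D29H replicate 2 and -0.10 without R554Q replicate 3. All genes called between the Cre groups went from 3927 to 4677 with the offsets and to 5118 at an adjusted p under 0.10. Dnajb9 in D29H ran from -0.15 to 0.0023 without 1 library. The difference between the alleles gave 0 calls under each alternative run for it. All genes called varied too, from 82 to 3941 in D29H, where 682 were reported, and from 238 to 2872 in R554Q, where 872 were reported. Equal replicate numbers did not mark pairs: deviations of same-numbered libraries correlated with r of -0.10, -0.07 and -0.02 in the Nrf2 cells and 0.03, -0.17 and -0.02 in the Keap1 cells. With a replicate block by title number the calls among the 10 genes were 1 in D29H and 1 in R554Q, where 728 and 484 of all genes were called. A block by the numbers in the sample descriptions, which match 2 libraries of each Nrf2 group (r of 0.10 and 0.02), gave 7 in D29H. It called 3941 of all 14370 genes, 1912 of them lower. In that fit D29H replicate 1 and labelled knockout replicate 3 have no partner and do not enter the contrast, and leaving out D29H replicate 1 alone also gave 7. The causes of these changes were not tested. Counts of the 10 genes in a library ran from 349 for Dnajb9 to 34200 for Calr, and counting error is relatively larger at low counts.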
